A study of Mus musculus with 8 samples.

Results

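The 34 genes described here were listed by name as a group for amino acid transport and one-carbon metabolism. They comprise 12 amino acid carriers, 3 enzymes of serine synthesis, 7 genes of the folate cycle, 3 of the methionine cycle, 5 other amino acid enzymes and 4 genes of the Atf4 response. Of the 34, 33 had a row in the deposited table of 15681 genes, and Gldc, the glycine decarboxylase, had none. All 33 passed the filter on low levels (at least 1 RPM in at least 2 libraries, where RPM is the level scaled to the effective size of the library) and were among the 12441 genes tested. The rule for the group is a list of names with no threshold on a measured value, but the names were chosen with earlier results of these data known. The study measured RNA in mature B lymphocytes sorted from the spleens of mice 8 to 10 weeks old, in 4 groups of 2 libraries. Controls were heterozygous, and the other groups lacked Myc (Myc_KO), Max (Max_KO) or both genes (double_KO). All cells were cultured with lipopolysaccharide at 20 µg/ml and interleukin-4 at 20 ng/ml and were harvested after 72 h. Not given in the sources used here are the alleles, the driver of any recombinase and the genes for which the controls are heterozygous. Whether each library came from its own mouse is not said in the labels, so a p-value here measures library-to-library spread and nothing wider.

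Dividing cells need amino acids for protein and need carbon units carried on folate for purines, thymidylate and methylation. Serine is taken up or made from a glycolytic intermediate by Phgdh, Psat1 and Psph, and its conversion to glycine by Shmt1 in the cytosol or Shmt2 in mitochondria loads carbon units onto folate. Atf4 is a transcription factor of the integrated stress response that is known to switch on many genes for amino acid carriers and synthesis when amino acids run short. Myc binds DNA as a dimer with Max and is known for raising metabolic and growth genes in activated lymphocytes.

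The libraries held 14.88 to 17.91 M estimated reads. Groups follow the sample titles, which are also the column names. For 2 libraries the description and genotype fields name another genotype: the library titled as double_KO replicate 1 is described as Myc_KO, and the library titled as Myc_KO replicate 2 is described as double_KO. Throughout, values are given for replicate 1 and then replicate 2. Max was at 55.0 and 54.5 RPM in the control, 70.4 and 59.8 in Myc_KO, 16.4 and 15.5 in Max_KO and 28.6 and 31.2 in double_KO. By title, all 4 libraries of the groups that lack Max were therefore below all 4 of the others. By description, double_KO would hold a library with Max at 59.8 RPM, above both controls, and Myc_KO 1 at 28.6, below both. Myc was at 111 and 116 RPM in the control, 48.3 and 55.7 in Myc_KO, 192 and 176 in Max_KO and 38.7 and 55.3 in double_KO. Calls lost when these 2 libraries take the described genotype, or are left out, are given with those values, as are calls against the control gained that way. Each comparison with the control uses the same 2 control libraries, so the 3 comparisons are not independent of each other. In bulk RNA, fewer cells of a type and less RNA per cell cannot be told apart.

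Markers of B cells were high in every library. The summed level of the 6 B cell markers was 4850 to 4920 RPM in the control and 6000 to 7290 in the knock-out groups. The 6 T cell markers summed to 2.37 to 2.49 RPM in the control and 11.7 to 33.8 in the knock-out groups, and the 3 measured natural killer markers to 0.0606 to 0.187 and 1.72 to 7.64. The 5 measured myeloid markers summed to 14.1 to 14.5 RPM in the control and 14.5 to 33.1 in the knock-out groups. Within this list, Cd68 was at 12 and 10.7 RPM in the control and 3.2 to 6.32 in the knock-out libraries, while Adgre1 was at 0.809 and 1.76 in the control and 5.43 to 27.1 in the knock-out libraries. The 4 plasma cell markers summed to 981 to 1050 RPM in the control, 707 to 764 in Myc_KO, 299 to 368 in Max_KO and 558 to 759 in double_KO. The plasma cell sum mostly follows Xbp1, at 793 and 680 RPM in the control, 431 and 364 in Myc_KO, 310 and 225 in Max_KO and 375 and 417 in double_KO. Jchain was at 210 and 255 RPM in the control, 281 and 260 in Myc_KO, 37.3 and 35.4 in Max_KO and 137 and 261 in double_KO. Sdc1 and Prdm1 were above both controls in both Myc_KO libraries (8.23 and 14.9 RPM for Sdc1, 44.1 and 69.2 for Prdm1), where the controls held 5.98 and 5.94 RPM of Sdc1 and 39 and 39.1 of Prdm1. In double_KO they were at 8.83 and 16.5 RPM and at 37 and 65.2, and in Max_KO at 2.94 and 3.02 and at 18.5 and 35.1. Ncr1 and Klrk1 were at 0 in both controls, Csf1r was at 0 in 4 knock-out libraries, and Klf1, the erythroid marker with a row, was at most 0.56 RPM. Mitochondrially encoded genes took 5.69 and 4.93% of the control reads and 2.21 to 2.96% of the others. The part of any of these differences in the members' values was not tested.

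Promoters of the members were examined because Myc with Max is known to bind the E-box and Atf4 the C/EBP-ATF response element. RefSeq promoter windows (250 bases before to 50 after the start, GRCm38.p6) were matched for 29 of the 33 members. Slc1a5, Slc7a5, Slc38a1 and Slc25a32 had no entry. The E-box CACGTG was present in 2 of the 29 (6.9%), Slc43a1 and Aldh18a1, and in 12.1% of the 9302 tested genes with a window and 7.15% of all 32851 windows. The core of the C/EBP-ATF element, TGATGNAA, read on both strands, was present in 6 of the 29 (20.7%): Slc1a4, Slc7a11, Asns, Pycr1, Trib3 and Chac1. It was present in 2.76% of the tested genes and in 3.97% of all windows. A match is a description of letters and not a bound site. The 6 windows below belong to the members with the lowest adjusted p against the control that hold a match. They are written 5′ to 3′ on the strand of the gene, with the match in capitals, and the members with the C/EBP-ATF element are taken up again with the 2 double_KO libraries.
Pycr1 (chr11:120643699-120643998, minus strand): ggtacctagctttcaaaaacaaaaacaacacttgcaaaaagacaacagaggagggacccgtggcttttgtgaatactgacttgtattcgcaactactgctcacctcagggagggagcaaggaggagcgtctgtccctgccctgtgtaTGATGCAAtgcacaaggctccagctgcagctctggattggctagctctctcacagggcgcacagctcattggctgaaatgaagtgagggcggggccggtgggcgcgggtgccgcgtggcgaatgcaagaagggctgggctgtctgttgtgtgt
Trib3 (chr2:152344011-152344310, minus strand): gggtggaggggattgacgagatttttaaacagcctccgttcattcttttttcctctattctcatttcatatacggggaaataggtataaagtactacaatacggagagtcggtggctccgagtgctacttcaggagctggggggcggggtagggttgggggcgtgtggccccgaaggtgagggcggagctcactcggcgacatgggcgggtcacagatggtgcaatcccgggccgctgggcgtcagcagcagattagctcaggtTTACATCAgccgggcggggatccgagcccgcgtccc
Slc1a4 (chr11:20332664-20332963, minus strand): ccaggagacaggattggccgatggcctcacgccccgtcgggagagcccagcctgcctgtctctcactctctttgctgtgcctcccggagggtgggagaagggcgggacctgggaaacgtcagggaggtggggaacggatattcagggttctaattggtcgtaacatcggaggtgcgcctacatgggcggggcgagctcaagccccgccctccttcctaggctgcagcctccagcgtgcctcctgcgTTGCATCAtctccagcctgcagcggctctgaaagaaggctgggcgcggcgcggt
Slc43a1 (chr2:84840073-84840372, plus strand): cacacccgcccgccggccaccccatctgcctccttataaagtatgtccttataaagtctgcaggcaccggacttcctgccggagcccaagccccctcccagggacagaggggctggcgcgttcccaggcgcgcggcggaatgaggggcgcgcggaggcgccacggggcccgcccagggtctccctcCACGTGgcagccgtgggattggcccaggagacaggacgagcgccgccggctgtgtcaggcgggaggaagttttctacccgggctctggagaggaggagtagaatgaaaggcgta
Aldh18a1 (chr19:40588414-40588713, minus strand): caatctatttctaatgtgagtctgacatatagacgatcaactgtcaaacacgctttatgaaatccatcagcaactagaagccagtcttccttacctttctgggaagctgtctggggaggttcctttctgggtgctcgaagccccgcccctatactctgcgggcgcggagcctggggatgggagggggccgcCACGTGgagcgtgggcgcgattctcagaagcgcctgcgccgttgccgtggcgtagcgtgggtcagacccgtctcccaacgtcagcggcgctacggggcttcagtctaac
Chac1 (chr2:119350992-119351291, plus strand): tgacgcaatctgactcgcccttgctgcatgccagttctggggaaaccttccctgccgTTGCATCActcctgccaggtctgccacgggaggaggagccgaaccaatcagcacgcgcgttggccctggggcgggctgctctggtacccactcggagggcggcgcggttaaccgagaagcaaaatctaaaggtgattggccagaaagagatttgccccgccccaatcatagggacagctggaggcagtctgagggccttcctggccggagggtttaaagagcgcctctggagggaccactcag

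Against the control, Myc_KO had lower transcripts of the glutamine carrier Slc1a5, the serine synthesis enzyme Phgdh, both serine hydroxymethyltransferases and the formate-producing Mthfd1l, and higher Slc38a1 and Mtr. Of the 33 members, 3 rose and 11 fell in Myc_KO (42.4% called, adjusted p below 0.05, limma), beside 45.5% of all genes tested, of which 24% rose and 21.4% fell. In Max_KO, 3 rose and 13 fell (48.5%), beside 39.8% of all genes (22.4% up and 17.4% down). In double_KO, 5 rose and 5 fell (30.3%), beside 38.7% of all genes (21.9% up and 16.8% down). Over both directions these shares lie near those of all genes. By direction, the share of members called lower was 33.3% for Myc_KO, 39.4% for Max_KO and 15.2% for double_KO, and the share called higher 9.09%, 9.09% and 15.2%. The members' median log2 change was -0.29 in Myc_KO, -0.32 in Max_KO and -0.02 in double_KO, where the median of all genes was 0.003, 0.02 and 0.024. The plot of each member's change against the control shows that most points of the 2 single knock-outs lie left of 0, with those of double_KO spread on both sides.

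**Figure D1:**
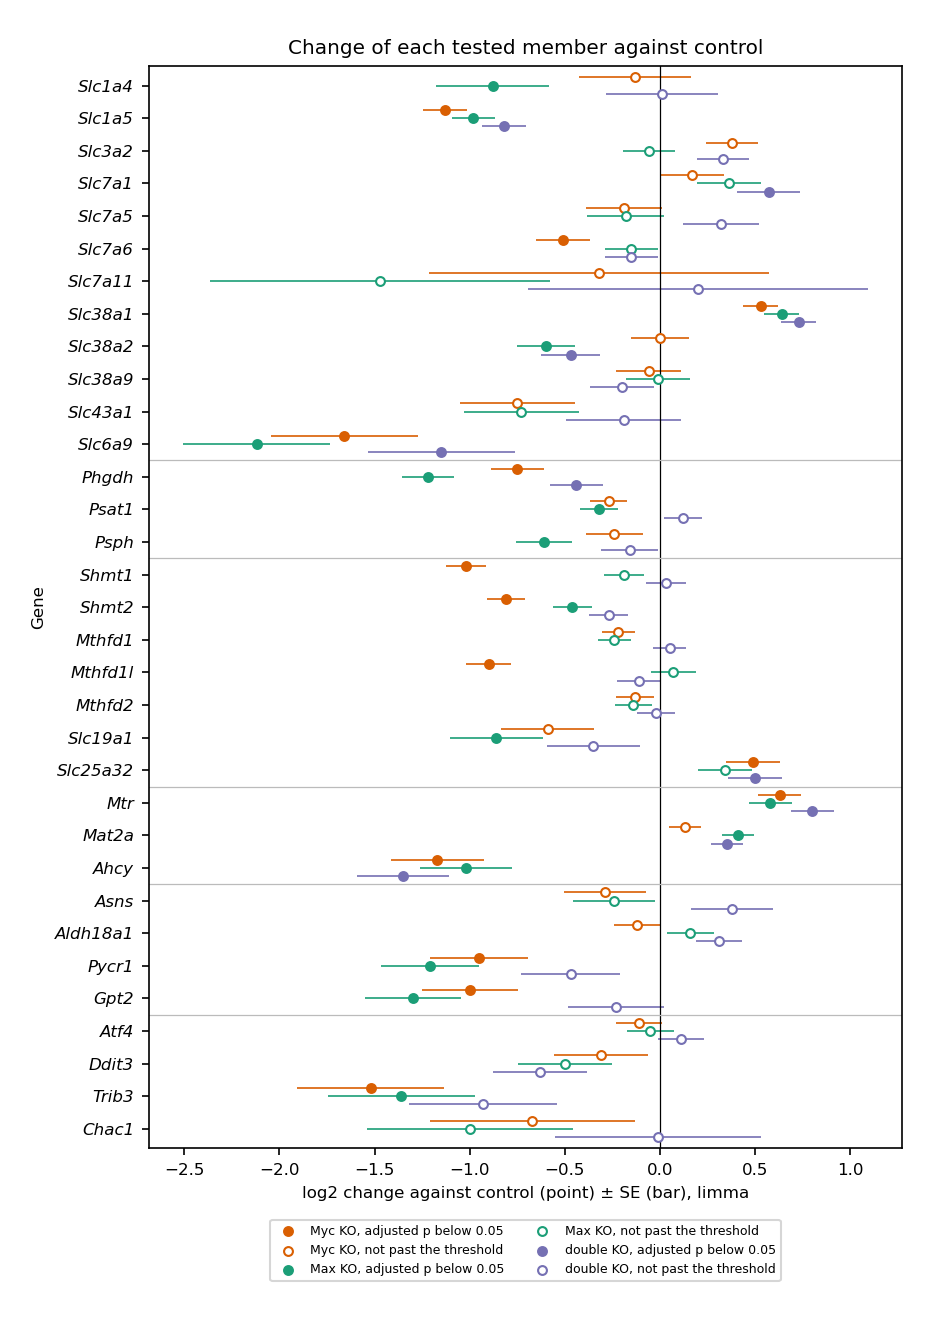
Change of each of the 33 tested members against the control. The x axis is the log2 change (point) with its standard error (bar) from limma, the y axis lists the genes by role, and the 3 colours are Myc_KO, Max_KO and double_KO; filled points passed an adjusted p of 0.05. Of the filled points, 11 of 14 in Myc_KO, 13 of 16 in Max_KO and 5 of 10 in double_KO lie below 0.

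By gene, Slc1a5, Slc6a9, Phgdh and Ahcy fell in all 3 knock-out groups, and Slc38a1 and Mtr rose in all 3. Shmt2, Pycr1, Gpt2 and Trib3 fell in both single knock-outs, with log2 values of -0.27, -0.47, -0.23 and -0.93 in double_KO that did not pass the test. No call was made in any of these comparisons for 12 members: Slc3a2, Slc7a5, Slc7a11, Slc38a9, Slc43a1, Mthfd1, Mthfd2, Asns, Aldh18a1, Atf4, Ddit3 and Chac1. The share of all genes with each of these patterns is not given here, and the comparisons share the same controls. The patterns thus do not show whether the members differ from other genes. The heat map of the members by library shows these patterns library by library.

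**Figure D2:**
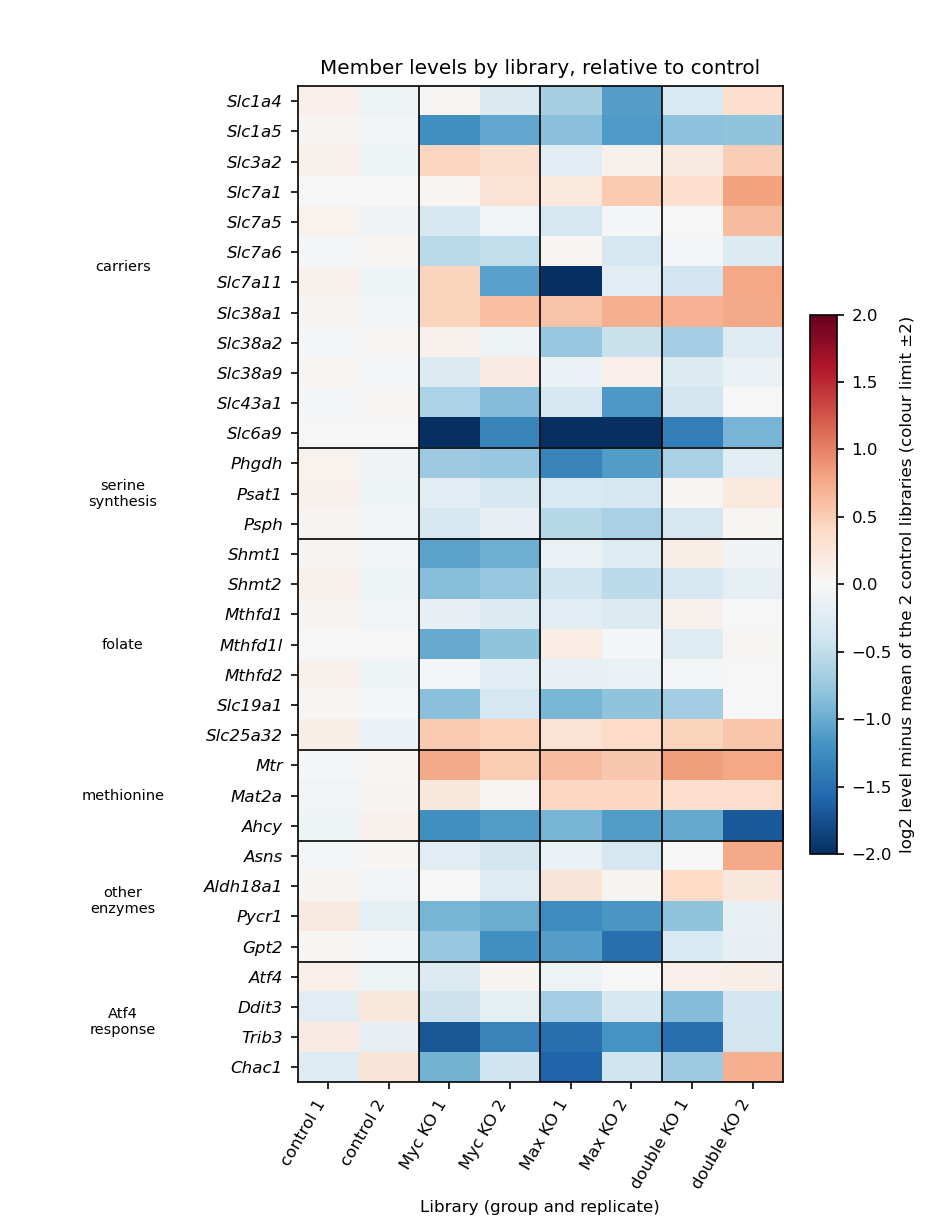
Level of each of the 33 tested members in each of the 8 libraries. Rows are genes grouped by role, columns are libraries, and colour is the log2 level minus the mean of the 2 control libraries, with the colour scale limited at ±2. Slc1a5, Slc6a9, Phgdh and Ahcy are blue and Slc38a1 and Mtr red in all 6 knock-out libraries, and double_KO replicate 2 is redder than replicate 1 in most rows.

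Of the 12 carriers, Myc_KO had 1 up and 3 down (33.3% called, beside 45.5% of all genes), Max_KO 1 up and 4 down (41.7%, beside 39.8%) and double_KO 2 up and 3 down (41.7%, beside 38.7%). Slc1a5 (chr7:16781340-16798274), an exchanger of neutral amino acids that takes up glutamine, was at 377 and 348 RPM in the control, 154 and 177 in Myc_KO, 203 and 165 in Max_KO and 205 and 206 in double_KO. All 6 knock-out libraries were far below both controls. It fell 2.2-fold in Myc_KO (log2 change -1.13, SE 0.114, adjusted p = 0.000181, limma), 1.98-fold in Max_KO (-0.98, adjusted p = 0.000513) and 1.76-fold in double_KO (-0.82, adjusted p = 0.00118). Slc6a9 (chr4:117834506-117875198), a glycine carrier, was at 3.86 and 3.88 RPM in the control, 0.948 and 1.53 in Myc_KO, 0.944 and 0.797 in Max_KO and 1.47 and 2.03 in double_KO. Its level was low in every library, and no knock-out library reached the controls. It fell 3.16-fold in Myc_KO (log2 -1.66, SE 0.386, adjusted p = 0.00907), 4.36-fold in Max_KO (-2.12, adjusted p = 0.00365) and 2.22-fold in double_KO (-1.15, adjusted p = 0.045). Slc6a9 overlaps B4galt2 on the other strand (mean 1.05 RPM), and the strand setting of the counting is not known from the labels. Slc38a1, a sodium-coupled carrier of small neutral amino acids, was at 125 and 115 RPM in the control, 164 and 183 in Myc_KO, 178 and 197 in Max_KO and 195 and 203 in double_KO. It was higher in all 6 knock-out libraries, by 1.44-fold in Myc_KO (log2 0.53, SE 0.0921, adjusted p = 0.0024), 1.56-fold in Max_KO (0.64, adjusted p = 0.00134) and 1.66-fold in double_KO (0.73, adjusted p = 0.000759).

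Slc38a2, the relative of Slc38a1 that cells are known to raise when amino acids run short, did not go the same way. It was at 144 and 150 RPM in the control, 156 and 138 in Myc_KO, 87.1 and 108 in Max_KO and 91.7 and 123 in double_KO. The Max_KO and double_KO libraries were below both controls, by 1.52-fold (log2 -0.6, adjusted p = 0.016) and 1.38-fold (-0.47, adjusted p = 0.0418), while the Myc_KO libraries lay on either side of them. Slc1a4, an exchanger of alanine, serine and cysteine related to Slc1a5, was at 6.35 and 5.46 RPM in the control, 6.01 and 4.81 in Myc_KO, 3.72 and 2.74 in Max_KO and 4.75 and 7.4 in double_KO. It fell 1.84-fold in Max_KO (log2 -0.88, adjusted p = 0.0449). Slc7a6, a light chain for cationic and neutral amino acids, was at 50.5 and 52.5 RPM in the control and 35.4 and 36.8 in Myc_KO, and fell 1.43-fold there (log2 -0.51, adjusted p = 0.0185). In Max_KO (52.7 and 40.8) and double_KO (50.5 and 42.7), replicate 1 of Slc7a6 reached the level of the controls and replicate 2 lay below both. Slc7a1, a carrier of arginine and lysine, was at 82.5 RPM in both controls, 85.2 and 101 in Myc_KO, 95.6 and 118 in Max_KO and 104 and 144 in double_KO. All its knock-out libraries were above the controls, and it rose 1.48-fold in double_KO (log2 0.57, adjusted p = 0.0292).

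The other carriers, among them the large neutral amino acid carrier of activated lymphocytes, did not pass the test against the control. Slc7a5, that carrier, was at 133 and 121 RPM in the control, 102 and 122 in Myc_KO, 101 and 126 in Max_KO and 127 and 196 in double_KO, so that every group overlapped the control. Its heavy-chain partner Slc3a2 was at 110 and 97.4 RPM in the control, 139 and 130 in Myc_KO, 89.2 and 110 in Max_KO and 117 and 145 in double_KO. The log2 change of Slc3a2 was 0.38 in Myc_KO (adjusted p = 0.0533) and 0.33 in double_KO (adjusted p = 0.0866). Slc38a9, a lysosomal arginine sensor, ranged from 19.5 to 26.5 RPM over the 8 libraries and its largest log2 change was -0.2, in double_KO. Slc43a1, a further large neutral carrier, was lower in all libraries of Myc_KO (4.96 and 4.22 RPM) and Max_KO (6.22 and 3.46) than in the control (7.59 and 7.88), with adjusted p of 0.0727 and 0.0865. Slc7a11, the cystine and glutamate exchanger, was low in every library, between 0.147 and 1.95 RPM.

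Some carrier calls rest on single libraries or on the labels. Without either control, or without either Myc_KO library, the adjusted p of Slc7a6 in Myc_KO was 0.0508 to 0.0941, and with the described genotypes it was 0.257. That of Slc6a9 in Myc_KO was 0.0561 and 0.0515 when control replicate 1 or 2 was left out. Slc6a9 in double_KO was at 0.0525 to 0.191 without either library of the control, of Max_KO or of double_KO, and at 0.158 without the 2 disputed libraries. Slc1a4 in Max_KO was at 0.0503 to 0.207 without either control, Max_KO replicate 2 or either Myc_KO library. Slc38a2 was at 0.0726 to 0.0878 in Max_KO without either control or Max_KO replicate 1, and at 0.133 to 0.229 in double_KO without either control or double_KO replicate 1. With the described genotypes Slc38a2 was at 0.0643 in Max_KO and 0.552 in double_KO, and without the 2 disputed libraries at 0.213 in double_KO. Slc7a1 in double_KO was at 0.113 to 0.163 without either control or double_KO replicate 2. Calls were gained by Slc3a2 in double_KO with the described genotypes (log2 0.41, adjusted p = 0.0414) and, without the 2 disputed libraries, by Slc7a1 in Max_KO (0.36, adjusted p = 0.047) and Slc7a5 in double_KO (0.63, adjusted p = 0.0249). The calls of Slc1a5 and Slc38a1 were kept in all 3 comparisons without any 1 library.

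The 3 serine synthesis enzymes were all called lower in Max_KO, beside 17.4% of all genes, but only the call of Phgdh was kept without any 1 library. Phgdh (chr3:98313170-98339990), which catalyses the opening step, was at 257 and 235 RPM in the control, 148 and 145 in Myc_KO, 98.3 and 113 in Max_KO and 156 and 209 in double_KO. No knock-out library reached the controls, Max_KO was lowest and double_KO replicate 2 came nearest. It fell 1.68-fold in Myc_KO (log2 -0.75, SE 0.138, adjusted p = 0.00313, limma), 2.33-fold in Max_KO (-1.22, adjusted p = 0.000486) and 1.36-fold in double_KO (-0.44, adjusted p = 0.0342). Psat1, the aminotransferase of the pathway, was at 146 and 130 RPM in the control, 119 and 110 in Myc_KO, 112 and 110 in Max_KO and 140 and 160 in double_KO. Both single knock-outs were below both controls, and double_KO overlapped them. Its 1.25-fold fall in Max_KO passed the test (log2 -0.32, SE 0.099, adjusted p = 0.0338), and the log2 value of -0.27 in Myc_KO did not (adjusted p = 0.0541). Psph, the phosphatase that releases serine, was at 31.2 and 28.8 RPM in the control, 24.1 and 26.7 in Myc_KO, 20.2 and 19.1 in Max_KO and 23.7 and 30.4 in double_KO. It fell 1.52-fold in Max_KO (log2 -0.61, SE 0.148, adjusted p = 0.0128).

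For Phgdh, 63.1% of the 50-base stretches of its longest coding transcript also occur in other genes, most in the processed pseudogene Gm7901, and reads of these stretches were divided by the authors' estimate. Psph overlaps Cct6a (mean 234 RPM) on the other strand. The Phgdh call in double_KO was at adjusted p 0.0849 to 0.184 without either control or double_KO replicate 1, and at 0.198 without the 2 disputed libraries. Psat1 in Max_KO was at 0.0529 to 0.207 without either library of the control or of Max_KO, and at 0.169 with the described genotypes. Psph in Max_KO was at 0.0904 without control replicate 1 and at 0.0613 without Max_KO replicate 2.

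In the folate cycle the 2 serine hydroxymethyltransferases and Mthfd1l were lowest in Myc_KO. Shmt1 (chr11:60788104-60811718), the cytosolic enzyme, was at 90.2 and 83.7 RPM in the control, 41.4 and 44.2 in Myc_KO, 79.5 and 72.5 in Max_KO and 95.1 and 83.1 in double_KO. Both Myc_KO libraries stood far below the other 6. It fell 2.03-fold in Myc_KO (log2 -1.02, SE 0.104, adjusted p = 0.000188, limma), and its log2 values of -0.19 in Max_KO and 0.03 in double_KO did not pass (adjusted p = 0.169 and 0.827). Mthfd1l, the mitochondrial enzyme that releases formate, was at 128 and 130 RPM in the control, 64.2 and 73.9 in Myc_KO, 143 and 127 in Max_KO and 109 and 131 in double_KO. Again both Myc_KO libraries were below the other 6, and the fall was 1.87-fold (log2 -0.9, SE 0.117, adjusted p = 0.000589). Shmt2, the mitochondrial hydroxymethyltransferase, was at 261 and 231 RPM in the control, 135 and 145 in Myc_KO, 187 and 170 in Max_KO and 191 and 217 in double_KO. All its knock-out libraries were below both controls, with falls of 1.75-fold in Myc_KO (log2 -0.81, SE 0.101, adjusted p = 0.0005) and 1.38-fold in Max_KO (-0.46, adjusted p = 0.00834).

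The Myc_KO values of Shmt1 and Mthfd1l depend on the labels of the 2 disputed libraries. With the described genotypes, the log2 change in Myc_KO was -0.47 for Shmt1 (adjusted p = 0.355) and -0.62 for Mthfd1l (adjusted p = 0.119). Without both of these libraries, or without any 1 of the 8, the Myc_KO calls of Shmt1 and Mthfd1l were kept. Shmt2 in Max_KO was at adjusted p 0.0725 without control replicate 1, 0.052 without Max_KO replicate 2 and 0.118 with the described genotypes. Shmt1 overlaps Smcr8 (mean 99.0 RPM) on the other strand.

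Each of the 2 folate carriers passed the test in part of the comparisons. Slc19a1, the carrier of reduced folate in the plasma membrane, was at 26.1 and 24.9 RPM in the control, 14.2 and 20.1 in Myc_KO, 13.6 and 14.6 in Max_KO and 15.8 and 25.5 in double_KO. Both single knock-outs were below the controls, and double_KO replicate 2 lay within the control range. It fell 1.81-fold in Max_KO (log2 -0.86, SE 0.243, adjusted p = 0.0238), and its log2 value of -0.59 in Myc_KO had an adjusted p of 0.0785. Slc25a32, the mitochondrial folate carrier, was at 14.2 and 12.1 RPM in the control, 18.9 and 18.1 in Myc_KO, 16.0 and 17.2 in Max_KO and 17.9 and 19.3 in double_KO. All 6 knock-out libraries were above the controls, and it rose 1.41-fold in Myc_KO (log2 0.49, SE 0.143, adjusted p = 0.0225) and in double_KO (0.5, adjusted p = 0.0251). Mthfd1, the cytosolic trifunctional folate enzyme, was at 112 and 104 RPM in the control, 96.2 and 89.2 in Myc_KO, 93.5 and 89.0 in Max_KO and 115 and 108 in double_KO. Its single knock-out libraries lay below the controls, with adjusted p of 0.0703 and 0.0563. Mthfd2, a mitochondrial dehydrogenase of the cycle, ranged from 74.6 to 92.9 RPM, and its log2 changes lay between -0.14 and -0.02.

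For Slc19a1 the Max_KO call was at adjusted p 0.0635 to 0.12 without either library of the control or of Max_KO, while the Myc_KO value was at 0.00565 with the described genotypes and at 0.0104 without the 2 disputed libraries. Slc25a32 in Myc_KO was at 0.136 without control replicate 2, 0.0879 without Myc_KO replicate 1, 0.0581 without Myc_KO replicate 2 and 0.0733 without the 2 disputed libraries. Slc25a32 in double_KO was at 0.148 without control replicate 2, 0.0638 without double_KO replicate 1, 0.116 without double_KO replicate 2 and 0.0739 without the 2 disputed libraries.

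In the methionine cycle, Mtr rose and Ahcy fell in each knock-out group. Mtr (chr13:12182712-12258113), the methionine synthase that takes its methyl group from folate, was at 29.0 and 30.3 RPM in the control, 50.1 and 42.1 in Myc_KO, 45.7 and 43.2 in Max_KO and 52.8 and 50.6 in double_KO. All 6 knock-out libraries were well above the controls. The rise was 1.55-fold in Myc_KO (log2 0.63, SE 0.113, adjusted p = 0.00259, limma), 1.5-fold in Max_KO (0.58, adjusted p = 0.00464) and 1.74-fold in double_KO (0.8, adjusted p = 0.0012). Mat2a, the catalytic subunit that makes S-adenosylmethionine, was at 176 and 190 RPM in the control, 213 and 189 in Myc_KO, 244 and 243 in Max_KO and 232 and 234 in double_KO. The Max_KO and double_KO libraries were above both controls and rose 1.33-fold (log2 0.41, SE 0.0844, adjusted p = 0.00606) and 1.27-fold (0.35, adjusted p = 0.0128), and Myc_KO overlapped the control. Ahcy (chr2:155059310-155074497), which hydrolyses S-adenosylhomocysteine, was at 13.9 and 15.6 RPM in the control, 6.29 and 6.79 in Myc_KO, 7.73 and 6.76 in Max_KO and 7.23 and 4.58 in double_KO. It fell 2.25-fold in Myc_KO (log2 -1.17, SE 0.243, adjusted p = 0.00536), 2.03-fold in Max_KO (-1.02, adjusted p = 0.0116) and 2.55-fold in double_KO (-1.35, adjusted p = 0.00354).

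The level of Ahcy is uncertain because 77.0% of its 50-base stretches are shared with other genes, chiefly Gm4737, which is annotated as protein-coding and held more of the reads (mean 272 RPM). Gm4737 also fell, with a log2 change of -0.92 in Myc_KO (adjusted p = 0.000116), -0.6 in Max_KO (0.00116) and -0.6 in double_KO (0.00111). The 2 genes together were at 400 and 393 RPM in the control, 208 and 210 in Myc_KO, 278 and 243 in Max_KO and 264 and 252 in double_KO. The sum was thus lower in all 6 knock-out libraries, with the control mean 1.9, 1.52 and 1.54 times that of Myc_KO, Max_KO and double_KO. The call of Ahcy in Max_KO was at adjusted p 0.0537 to 0.0779 without either control or Max_KO replicate 2. Mat2a was at 0.0547 in Max_KO without control replicate 1. In double_KO it was at 0.0951 without control replicate 1, 0.0534 without double_KO replicate 1, 0.0586 without double_KO replicate 2 and 0.193 with the described genotypes.

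Among the other amino acid enzymes, Gpt2 and Pycr1 fell in both single knock-outs. Gpt2, the mitochondrial alanine aminotransferase, was at 8.59 and 8.31 RPM in the control, 4.96 and 3.58 in Myc_KO, 3.94 and 2.96 in Max_KO and 6.82 and 7.57 in double_KO. All knock-out libraries were below the controls, and those of double_KO were nearest to them. It fell 2-fold in Myc_KO (log2 -1, SE 0.252, adjusted p = 0.013, limma) and 2.46-fold in Max_KO (-1.3, adjusted p = 0.00484). Pycr1, which completes proline synthesis, was at 12.4 and 9.64 RPM in the control, 5.75 and 5.51 in Myc_KO, 4.56 and 4.86 in Max_KO and 6.26 and 9.87 in double_KO. It fell 1.94-fold in Myc_KO (log2 -0.95, SE 0.258, adjusted p = 0.0172) and 2.32-fold in Max_KO (-1.21, adjusted p = 0.00727), and double_KO replicate 2 lay within the control range. Aldh18a1, which opens proline synthesis, was at 83.6 and 77.3 RPM in the control, 80.8 and 67.4 in Myc_KO, 96.5 and 83.1 in Max_KO and 106 and 94.0 in double_KO, with a log2 value of 0.31 in double_KO (adjusted p = 0.0783). Asns, the asparagine synthetase, was at 42 and 43.7 RPM in the control, 37.2 and 33.2 in Myc_KO, 39.1 and 33.8 in Max_KO and 43.2 and 72.4 in double_KO. Both single knock-outs were below the controls, and 1 library of double_KO stood far above all others.

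Gpt2 in Myc_KO was at adjusted p 0.06 to 0.0759 without either control or Myc_KO replicate 2, 0.265 with the described genotypes and 0.0893 without the 2 disputed libraries. Pycr1 in Myc_KO was at 0.125 without control replicate 1, 0.0513 without Myc_KO replicate 1 and 0.0628 without Myc_KO replicate 2, and in Max_KO at 0.0669 without control replicate 1. Without the 2 disputed libraries, Asns in double_KO passed the test (log2 0.76, adjusted p = 0.0117).

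Of the 4 genes of the Atf4 response, Trib3 fell in the single knock-outs and Atf4 itself passed no test. Atf4 was at 251 and 219 RPM in the control, 193 and 245 in Myc_KO, 219 and 234 in Max_KO and 252 and 254 in double_KO. Its log2 changes were -0.11, -0.05 and 0.11 (SE 0.121), with adjusted p between 0.494 and 0.769. Atf4 protein is known to be set largely by translation, which transcript levels do not show. Trib3, a pseudokinase induced by Atf4, was at 8.96 and 7.09 RPM in the control, 2.42 and 3.15 in Myc_KO, 2.78 and 3.46 in Max_KO and 2.79 and 6.2 in double_KO. All knock-out libraries were below the controls, with double_KO replicate 2 nearest. It fell 2.87-fold in Myc_KO (log2 -1.52, SE 0.387, adjusted p = 0.0133, limma) and 2.56-fold in Max_KO (-1.36, adjusted p = 0.0243). Ddit3, a transcription factor of the stress response, was at 12.1 and 16.7 RPM in the control, 10.5 and 12.5 in Myc_KO, 8.83 and 11.5 in Max_KO and 7.77 and 10.9 in double_KO, with adjusted p of 0.335, 0.142 and 0.0771. Ddit3 overlaps Mars (mean 146 RPM) on the other strand. Chac1, which degrades glutathione, was at 4.98 and 7.09 RPM in the control, 3.07 and 4.49 in Myc_KO, 1.94 and 4.52 in Max_KO and 3.58 and 9.71 in double_KO. The single knock-out libraries of Chac1 lay below both controls but did not pass (adjusted p = 0.338 in Myc_KO and 0.177 in Max_KO, limma). Those of double_KO lay on either side of the controls and differed by 2.7-fold. Trib3 in Myc_KO was at adjusted p 0.0946 without control replicate 1 and 0.0639 without Myc_KO replicate 1, and in Max_KO at 0.0549 to 0.144 without either library of the control or of Max_KO.

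**Figure D3:**
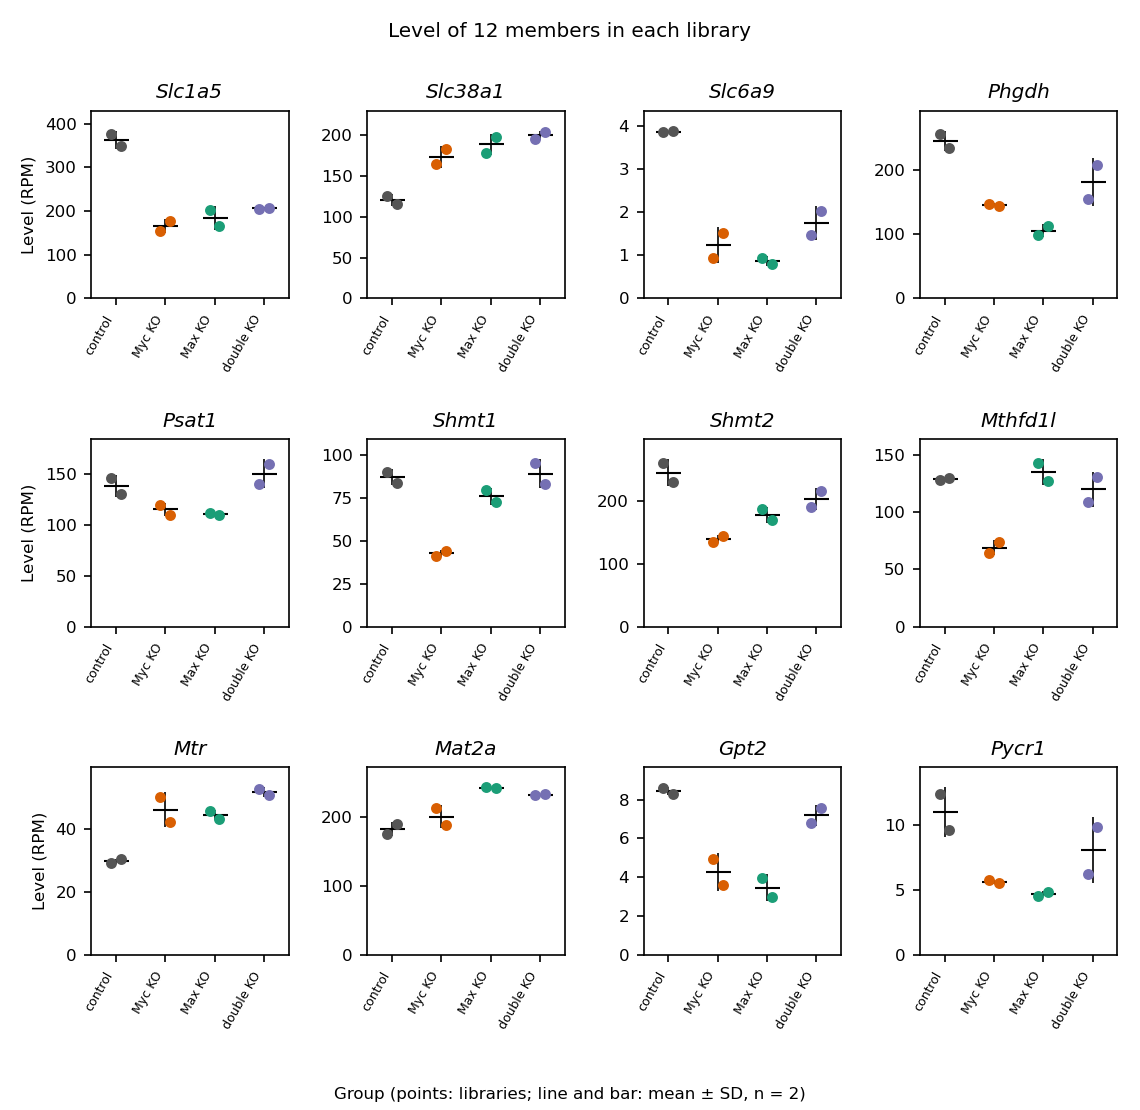
Level of 12 members in each library. Each panel is a gene, the y axis is its level in RPM from 0, the x axis the group, points are the 2 libraries of a group, and the line with its bar is their mean ± SD (n = 2). Shmt1 and Mthfd1l have both Myc_KO points below all other points, and Mtr and Slc38a1 have both control points lowest.

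The knock-out groups were compared with each other to ask whether losing Max in cells without Myc, or Myc in cells without Max, changed these genes further. Transcripts of both genes remained in part. Max was at 28.6 and 31.2 RPM in double_KO and at 16.4 and 15.5 in Max_KO. Myc was at 38.7 and 55.3 RPM in double_KO and at 48.3 and 55.7 in Myc_KO. The part of this in the comparisons here and in the interaction was not tested. In double_KO against Myc_KO, 2 members rose, Shmt1 by 2.08-fold (log2 1.06, SE 0.104, adjusted p = 0.00797, limma) and Mthfd1l by 1.73-fold (0.79, SE 0.117, adjusted p = 0.0386), and none fell (6.06%, beside 0.458% of all genes, 0.418% upward). At an unadjusted p below 0.05, 14 of the 33 passed, beside 1601 of the 12441 genes. The members' median was 0.32 and that of all genes 0.009. In Max_KO against Myc_KO the same 2 genes rose, Shmt1 by 1.78-fold (0.83, adjusted p = 0.00772) and Mthfd1l by 1.96-fold (0.97, adjusted p = 0.00686), beside 4.13% of all genes (2.44% upward). There 10 of the 33 passed unadjusted, beside 2412 of the 12441 genes. Both comparisons share the 2 Myc_KO libraries. In double_KO against Max_KO, limma called 0 of the 33, beside 0.0402% of all genes, 0.0322% upward and 0.00804% downward. Unadjusted, 11 of the 33 were below 0.05, beside 751 of the 12441 genes. The members' median in this comparison was 0.23 and that of all genes -0.004. The lowest unadjusted p there was that of Phgdh, which was 1.71-fold higher in double_KO (log2 0.77, SE 0.138, adjusted p = 0.161).

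These calls between knock-out groups depend on the 2 disputed libraries. With the described genotypes, double_KO against Myc_KO gave a log2 value of -0.05 for Shmt1 and 0.23 for Mthfd1l (adjusted p = 0.808), and Max_KO against Myc_KO gave 0.28 (adjusted p = 0.802) and 0.69 (adjusted p = 0.427). Without the 2 libraries, Shmt1 and Mthfd1l were at 1.01 and 1.02 in double_KO against Myc_KO, with adjusted p of 0.0649 and 0.0567. By title, Shmt1 in double_KO against Myc_KO was at adjusted p 0.0673 without double_KO replicate 1 and 0.0508 without Myc_KO replicate 1. Mthfd1l was at 0.0613 to 0.174 there without either library of the control, of Myc_KO or of double_KO. In Max_KO against Myc_KO, Shmt1 was at 0.0504 without Myc_KO replicate 1.

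The interaction asks whether the changes of the 2 single knock-outs add up in double_KO. It is double_KO minus Myc_KO minus Max_KO plus control on the log2 scale, and it is positive where double_KO lies above that sum. A gene that falls in both single knock-outs and no further in double_KO therefore has a positive value, and the reverse holds for a rise. Slc1a5 is such a gene, at -1.13 in Myc_KO, -0.98 in Max_KO and -0.82 in double_KO. The signs below are thus not independent of the changes against the control. For 14 of the 33 members it passed the test, 13 positive and 1 negative (42.4%), beside 27.4% of all genes (12.4% positive and 15% negative). The median was 0.7 over the members and 0 over all genes. All 3 serine synthesis genes were among the 13, at 1.52 for Phgdh (SE 0.195, adjusted p = 0.00177, limma), 0.7 for Psat1 (SE 0.14, adjusted p = 0.00872) and 0.69 for Psph (SE 0.209, adjusted p = 0.042). So were 5 of the 7 folate genes, at 1.25 for Shmt1, 1 for Shmt2, 0.72 for Mthfd1l, 0.51 for Mthfd1 and 1.1 for Slc19a1 (adjusted p = 0.00135, 0.00251, 0.0152, 0.0186 and 0.0454). Among the carriers, Slc1a5 was at 1.3 (adjusted p = 0.00158) and Slc6a9 at 2.63 (adjusted p = 0.0104), and among the remaining genes Gpt2 was at 2.06 (adjusted p = 0.00505), Pycr1 at 1.69 (adjusted p = 0.0119) and Trib3 at 1.94 (adjusted p = 0.0323). The negative value was that of Slc38a1 (-0.44, SE 0.13, adjusted p = 0.0385), which rose in every knock-out group, and in double_KO by less than the sum. No gene of the methionine cycle passed, with 0.84 for Ahcy (adjusted p = 0.103), -0.41 for Mtr (adjusted p = 0.0877) and -0.2 for Mat2a (adjusted p = 0.255). The interaction of Gm4737, with which Ahcy shares stretches of sequence, passed at 0.91 (SE 0.117, adjusted p = 0.00177).

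The interaction uses the same libraries as the comparisons above. With the described genotypes 9 members passed, 7 positive and 2 negative, and 8 of them were among the 14. Shmt1 was then at 0.15 (adjusted p = 0.873), Mthfd1l at 0.16 (0.808), Shmt2 at 0.6 (0.182), Mthfd1 at 0.14 (0.59), Psat1 at 0.36 (0.307) and Gpt2 at 1.14 (0.146). Without the 2 disputed libraries, 12 of the 14 were kept, and Slc38a1 (adjusted p = 0.193) and Mthfd1 (0.113) were lost. The calls of Slc1a5, Slc6a9, Phgdh, Psat1, Shmt1, Shmt2 and Gpt2 were kept without any 1 library. Mthfd1l was at 0.059 and 0.0561 without control replicate 1 or 2, and Pycr1 at 0.061 without control replicate 1. Mthfd1 was at 0.0522 to 0.0812 without control replicate 1, Max_KO replicate 2, double_KO replicate 1 or Myc_KO replicate 2. Slc38a1 was at 0.072 to 0.127 without either control, Max_KO replicate 2, either double_KO library or Myc_KO replicate 2. Trib3 and Slc19a1 were at 0.0542 to 0.122 and 0.0802 to 0.138 without either library of the control or of Max_KO, Myc_KO replicate 1 or double_KO replicate 2, and Psph was at 0.0574 to 0.143 without any 1 library except double_KO replicate 1.

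The 2 libraries titled double_KO differed from each other across this group of genes. Replicate 2 was higher than replicate 1 for 27 of the 33 members (81.8%), beside 50.9% of all genes tested, with a median log2 ratio of 0.26 over the members and 0.01 over all genes. In the other groups replicate 2 was higher for 12 members in the control, 17 in Myc_KO and 16 in Max_KO. Past 1.5-fold in either direction, 0 members differed in the control, 2 in Myc_KO and 3 in Max_KO, beside 8.16, 14.4 and 13.8% of all genes. Among them were Slc7a11, with replicate 2 at 0.345 times replicate 1 in Myc_KO and 5.73 times in Max_KO, and Chac1, at 2.31 times in Max_KO. Past 1.5-fold, 8 members were higher in double_KO replicate 2 (24.2%, beside 8.67% of all genes), and Ahcy was lower, at 0.635 times replicate 1 (4.15% of all genes were lower past this size). Ahcy shares most of its stretches with Gm4737, and the sum of both genes was at 264 and 252 RPM in these 2 libraries, so its ratio is uncertain. The 8 were Slc1a4 (1.56-fold), Slc7a5 (1.54), Slc7a11 (2.22), Slc19a1 (1.61), Asns (1.68), Pycr1 (1.57), Trib3 (2.21) and Chac1 (2.7). They include all 6 members with the C/EBP-ATF element in the promoter window, and 1 of the 23 members with a window and no element. The 1.5-fold limit was set after the values were seen. Apart from Asns (43.2 and 72.4 RPM), the members with the element were low in double_KO, from 0.865 RPM for Slc7a11 to 9.87 for Pycr1. Slc6a9, Slc43a1, Gpt2 and Ahcy, without the element, were also low there, with ratios of 1.38, 1.28, 1.11 and 0.635. The part of the level in these ratios was not tested. Among all tested genes with the element, the 6 members included, 12.1% of 257 were higher by this size, beside 6.9% of the 9045 with a window and no element. Replicate 1 is 1 of the disputed libraries, and its described genotype is Myc_KO. With 1 library on each side there is no replicate check of these ratios, and they bear on the double_KO values of these genes. Without double_KO replicate 1, Slc7a5 rose in double_KO against the control (log2 0.63, adjusted p = 0.0321), as did Asns (0.76, adjusted p = 0.0111), and without double_KO replicate 2 Trib3 fell (log2 -1.5, adjusted p = 0.0195).

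**Figure D4:**
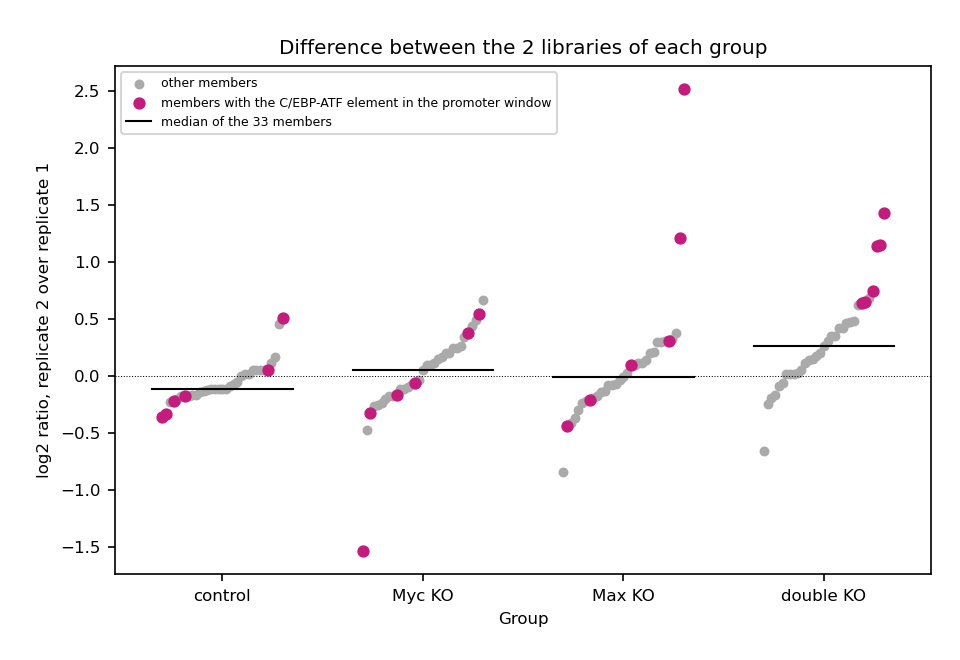
Difference between the 2 libraries of each group for the 33 members. The y axis is the log2 ratio of replicate 2 over replicate 1, the x axis the group, each point is a gene sorted by its ratio, the coloured points are the 6 members with the C/EBP-ATF element in the promoter window, and the horizontal line is the median of the 33. In double_KO the 6 coloured points lie among the highest and the median is 0.26, while in the other groups the medians are -0.11, 0.06 and -0.01.

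Genes of the same pathways that are not members were counted from lists written by name. These lists were chosen with earlier results of these data known, so their shares are a description only. Of 110 genes, 90 were tested, and Myc_KO had 10 higher and 33 lower (47.8%, median log2 change -0.21), Max_KO 9 higher and 26 lower (38.9%, median -0.16), and double_KO 11 higher and 19 lower (33.3%, median -0.04), beside 45.5, 39.8 and 38.7% of all genes called. Lower were 36.7% of the 90 in Myc_KO, 28.9% in Max_KO and 21.1% in double_KO, beside 21.4, 17.4 and 16.8% of all genes. The interaction passed for 34 of the 90, 28 positive (31.1%) and 6 negative (6.67%), with a median of 0.35, beside 12.4% positive and 15% negative over all genes. Among 14 other amino acid carriers tested, Myc_KO had 3 higher and 2 lower, Max_KO 1 higher and 2 lower, and double_KO 1 lower (35.7, 21.4 and 7.14% called, below the shares of all genes). That last one was Sfxn1, the mitochondrial serine carrier, which fell in all 3 groups, by 1.3-fold in Myc_KO (adjusted p = 0.00919), 1.4-fold in Max_KO (adjusted p = 0.00366) and 1.23-fold in double_KO (adjusted p = 0.027). Slc16a10, an aromatic amino acid carrier, rose 2.1-fold in Myc_KO (adjusted p = 0.0265), Slc1a2, a glutamate carrier, fell 3.59-fold there (adjusted p = 0.00995), and Slc38a10 fell 1.22-fold in Max_KO (adjusted p = 0.0215).

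Of 23 other one-carbon genes, Myc_KO had 2 higher and 7 lower, Max_KO 2 higher and 6 lower, and double_KO 3 higher and 6 lower (39.1, 34.8 and 39.1% called, near the shares of all genes). Cth, which makes cysteine from cystathionine, was at 18.9 and 19.6 RPM in the control, 5.68 and 6.36 in Myc_KO, 8.39 and 8.43 in Max_KO and 7.71 and 9.98 in double_KO. It fell 3.2-fold, 2.29-fold and 2.19-fold (adjusted p = 0.000271, 0.00185 and 0.00232). Mat2b, the regulatory partner of Mat2a, rose 1.3-fold, 1.77-fold and 1.61-fold (adjusted p = 0.00824, 0.000362 and 0.000761), and Ahcyl2, a relative of Ahcy, rose 1.95-fold, 1.37-fold and 1.54-fold (adjusted p = 0.0011, 0.0343 and 0.0104). Atic, of purine synthesis, was at 172 and 154 RPM in the control, 117 and 121 in Myc_KO, 170 and 164 in Max_KO and 179 and 182 in double_KO, and fell 1.37-fold in Myc_KO (adjusted p = 0.00286). Its Myc_KO libraries were the lowest of the 8, as were those of Shmt1 and Mthfd1l.

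Of 20 aminoacyl-tRNA synthetases, 9 were lower and none higher in Myc_KO, 1 was higher and 6 were lower in Max_KO, and double_KO had 3 higher and 2 lower. Called in either direction were 45, 35 and 25%, beside 45.5, 39.8 and 38.7% of all genes. Lower in Myc_KO were 45%, beside 21.4% of all genes, and lower in Max_KO 30%, beside 17.4%. Sars, which charges serine, fell 1.46-fold, 1.54-fold and 1.41-fold (adjusted p = 0.00235, 0.00175 and 0.0047), and Cars, for cysteine, fell 1.46-fold, 1.42-fold and 1.27-fold (adjusted p = 0.00262, 0.005 and 0.0232). Kars and Qars, for lysine and glutamine, fell in Myc_KO by 1.27-fold and 1.34-fold (adjusted p = 0.0151 and 0.0069) and in Max_KO by 1.36-fold and 1.24-fold (adjusted p = 0.00617 and 0.0284).

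Of 19 other integrated stress response genes, Myc_KO had 4 higher and 10 lower (73.7%), Max_KO 4 higher and 6 lower (52.6%) and double_KO 4 higher and 6 lower (52.6%), beside 45.5, 39.8 and 38.7% of all genes. Lower were 52.6% of the list in Myc_KO and 31.6% in Max_KO and in double_KO, beside 21.4, 17.4 and 16.8% of all genes. Ddit4, an inhibitor of mTORC1 signalling, was at 136 and 180 RPM in the control, 25.1 and 27.2 in Myc_KO, 66.7 and 32.8 in Max_KO and 37 and 31.9 in double_KO. It fell 5.98-fold, 3.34-fold and 4.55-fold (adjusted p = 0.000295, 0.00253 and 0.000931). Eif4ebp1, a repressor of cap-dependent translation, fell 2.77-fold, 2.22-fold and 1.94-fold (adjusted p = 0.000271, 0.00125 and 0.0028). Eif2ak2, the kinase activated by double-stranded RNA, rose 2.23-fold, 2.07-fold and 2.32-fold (adjusted p = 0.000259, 0.000608 and 0.000346). Vldlr, a lipoprotein receptor, was at 4.79 and 6.19 RPM in the control, 0 and 0.0534 in Myc_KO, 2.67 and 0.503 in Max_KO and 0.559 and 0.932 in double_KO. Among 14 other amino acid enzymes, 1 was higher in each knock-out group, and 5, 6 and 4 were lower in Myc_KO, Max_KO and double_KO (35.7, 42.9 and 28.6%, beside 21.4, 17.4 and 16.8% of all genes). Gcat, which cleaves a threonine product to glycine, was at 43 and 42.3 RPM in the control, 9.53 and 10.7 in Myc_KO, 13.1 and 9.22 in Max_KO and 16.0 and 17.9 in double_KO. It fell 4.2-fold, 3.88-fold and 2.52-fold (adjusted p = 0.000113, 0.000256 and 0.00114). Bcat2 fell 1.83-fold, 1.6-fold and 1.51-fold (adjusted p between 0.00232 and 0.0154), and Got1 fell 1.59-fold in Max_KO and 1.28-fold in double_KO (adjusted p = 0.00125 and 0.019).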

How the data were processed

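RNA-seq gave 8 libraries, and the authors deposited 1 table of log2 values for 15681 genes. The values themselves fit a log2 of estimated reads plus 0.5, scaled to RPM by an effective library size, from which levels were recovered. All recovered reads are multiples of 0.01 within 0.0002. Per the submitters' processing notes, CASAVA 1.8, cutadapt, RSEM 1.2.3 and the build GRCm38 were used; parameters, annotation and strand setting are not stated there. RSEM divides reads between near-identical genes by estimate. Changes are relative to the effective size, not to the cell, and total over effective size was 1.092 and 1.043 in the control and 0.956 to 0.995 elsewhere.

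The design foresaw log2(value + 1), but the values were already log2 values and were used as they are. A gene was tested if 2 or more libraries held it at 1 RPM or above. All 8 libraries entered 1 fit of 4 groups in limma 3.58.1 (R 4.3.3; eBayes with a mean-variance trend; residual degrees of freedom 4, prior 4.2). The two-sided tests had Benjamini-Hochberg adjustment over all 12441 genes and a threshold of 0.05. On simulated data for Myc_KO against control with 12441 genes, 59 of 100 genes changed by 1 on the log2 scale were recovered, and 11 of 100 changed by 0.5. Only these genes were changed in the simulation, while 45.5% of all genes passed in the data. The adjustment was thus stricter in the simulation, and its rates need not hold for the data. Symbols and coordinates came from GENCODE M21 (15622 genes had a symbol, 59 had none), and promoters from RefSeq. Overlaps and 50-base copies were searched with Python 3.11.15, pandas 2.3.3 and numpy 2.4.6; figures used matplotlib 3.10.9.

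Members and lists were chosen with earlier results of these data known. All members are accounted for; per role, full values were set for the 3 lowest and 2 highest adjusted p, Atf4, and members called between knock-out groups or in the interaction, and per further list up to 4 genes with the lowest adjusted p against the control; 1 of these is not reported here. Values of the remaining members were added after they were seen, as was the count past 1.5-fold between libraries. Alternatives were the described genotypes, the replicate block, the 30s or 40s number series of the titles, pseudocount, filters, scalings, fit settings, a threshold of 0.01 and each library left out.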

Additional observations from a re-analysis of the deposited data

Results flagged for a closer look

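For 14 members the change in double_KO differed from the sum of the changes in Myc_KO and Max_KO, tested as the interaction in limma. It was positive, on the log2 scale, for Slc1a5 (1.3), Slc6a9 (2.63), Phgdh (1.52), Psat1 (0.7), Psph (0.69), Shmt1 (1.25), Shmt2 (1), Mthfd1 (0.51), Mthfd1l (0.72), Slc19a1 (1.1), Pycr1 (1.69), Gpt2 (2.06) and Trib3 (1.94), and negative for Slc38a1 (-0.44). The adjusted p-values lay between 0.00135 and 0.0454. Across all genes tested, 27.4% passed the same test. A positive value also arises where a gene fell in both single knock-outs and no further in double_KO.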

How the results depend on the processing

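Limits: with 2 libraries a group, 1 library can decide a call, and estimated reads set the precision. Without any 1 library, the calls kept were 8 of 14 in Myc_KO, 6 of 16 in Max_KO, 4 of 10 in double_KO, 0 of 2 in double_KO against Myc_KO, 1 of 2 (Mthfd1l) in Max_KO against Myc_KO and 7 of 14 in the interaction. The number of members called ranged from 9 to 17 in Myc_KO, 6 to 16 in Max_KO, 5 to 10 in double_KO, 0 to 2 in double_KO against Myc_KO, 0 to 1 in double_KO against Max_KO, 1 to 4 in Max_KO against Myc_KO and 7 to 15 in the interaction. The lowest count in Myc_KO (9), Max_KO (6), double_KO (5) and the interaction (7) came without control replicate 1. Max_KO also had 10 without control replicate 2 or Max_KO replicate 2, double_KO 5 without control replicate 2, and the interaction 9 without control replicate 2 or Max_KO replicate 2. Without double_KO replicate 1 or 2, Max_KO against Myc_KO had 4, and without double_KO replicate 1 double_KO against Max_KO had 1. The causes were not tested. Shares of all genes called under these alternatives and those below are not given beside the counts. The counts thus do not show whether a drop or gain is particular to the members.

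A threshold of 0.01 left 9, 9 and 4 members called in Myc_KO, Max_KO and double_KO, 1 in double_KO against Myc_KO and 6 in the interaction. With the described genotypes, 0 were called in double_KO against Myc_KO, 0 in Max_KO against Myc_KO and 9 in the interaction. Without the 2 disputed libraries 0 were called in double_KO against Myc_KO. For double_KO against Myc_KO, quantile normalization and a fit of only the 2 groups each gave 1, and eBayes without trend 0. A fit of only the 2 groups gave 1 in Max_KO against Myc_KO. A term for the 30s or 40s of the title numbers gave 6 in each of these 2 comparisons and 1 in double_KO against Max_KO. Scaling to the same total moved the median of all genes by 0.15, 0.13 and 0.15 in Myc_KO, Max_KO and double_KO and by -0.13 in the interaction; with it, 5 members rose and 10 fell in Myc_KO, and 7 rose and 2 fell in double_KO.

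Whether the description field's numbers pair the libraries was not settled. Over 12441 genes, deviations of same-numbered libraries from the means of the described groups correlated between -0.11 and 0.26, and above 0.1 in 2 of 6 pairs of groups. The 0.26 was that of Myc_KO with double_KO. By title, both double_KO libraries carry number 1 and both Myc_KO libraries number 2, so this value cannot tell pairing from genotype. With the described genotypes and these numbers as a replicate block, 14, 16 and 10 members were called in Myc_KO, Max_KO and double_KO, 0 in double_KO against Myc_KO, 0 in Max_KO against Myc_KO and 13 in the interaction.

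Of the single members' values under all alternatives, 2214 kept direction and side of the threshold, 207 lost the call, 60 gained one and 72 changed sign. Apart from Shmt1 in double_KO against Myc_KO, which was -0.05 with the described genotypes with or without the replicate block, the sign changes concern log2 values that passed no test. In Myc_KO, the described genotypes with or without the replicate block gave 0.04 for Slc7a11 and 0.2 for Aldh18a1. Without the 2 disputed libraries it was 0.03 for Slc1a4, 0.45 for Slc7a11, 0.09 for Slc38a2 and 0.01 for Aldh18a1, and with that term 0 for Slc7a1. With the same total it was 0.02 for Slc1a4 and Aldh18a1, 0.15 for Slc38a2, 0.09 for Slc38a9, 0.01 for Mthfd2 and 0.04 for Atf4. In Max_KO the same total gave 0.04 for Slc3a2, 0.1 for Slc38a9 and 0.06 for Atf4. In double_KO, the described genotypes with or without the replicate block gave -0.15 for Slc7a11, 0.02 for Slc38a9, -0.06 for Psat1, -0.52 for Shmt1, -0.14 for Mthfd1, -0.01 for Aldh18a1 and 0.15 for Chac1. Without the 2 disputed libraries it was 0.02 for Psph and Mthfd1l, -0.06 for Shmt1 and 0.7 for Chac1, and with that term -0.16 for Slc7a11. Quantile normalization gave -0.06 for Shmt1, -0.05 for Mthfd1 and 0.11 for Chac1, the same total 0.01 for Mthfd1l, 0.1 for Mthfd2 and 0.11 for Chac1, median-of-ratios scaling -0.02 for Slc1a4, and a pseudocount of 1 RPM 0.01 for Chac1.

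Leaving out 1 library at a time changed the sign of further values near 0. In Myc_KO the ranges were -0.29 to 0.03 for Slc1a4, -1.08 to 0.45 for Slc7a11, -0.09 to 0.09 for Slc38a2, -0.28 to 0.16 for Slc38a9, -0.25 to 0.01 for Aldh18a1 and -0.28 to 0.06 for Atf4. In Max_KO they were -0.21 to 0.09 for Slc3a2, -0.33 to 0.03 for Slc7a6, -0.12 to 0.1 for Slc38a9, -0.02 to 0.16 for Mthfd1l and -0.15 to 0.05 for Atf4. In double_KO they were -0.31 to 0.33 for Slc1a4, -0.38 to 0.77 for Slc7a11, -0.34 to 0.02 for Psph, -0.06 to 0.13 for Shmt1, -0.01 to 0.1 for Mthfd1, -0.24 to 0.02 for Mthfd1l, -0.11 to 0.06 for Mthfd2 and -0.73 to 0.7 for Chac1. The fit of only the 2 groups was not run for the interaction, which needs all 4.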
